A study of Mus musculus with 9 samples.

Results

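The genes described here are the mitotic kinase, spindle and kinetochore genes of activated mouse satellite cells, which are muscle stem cells. They are 44 genes chosen by symbol, and all 44 were found in both gene tables of the authors, which hold 22631 and 27775 genes. The study measured RNA by sequencing in satellite cells of hindlimb muscle from 9-week-old mice, with 3 libraries labelled for each of 3 groups. The Mutant mice are Uhrf1-deficient in satellite cells and received tamoxifen, 150 µl at 20 mg/ml on each of 5 days, to induce recombination by Cre. The Cre Control mice also received tamoxifen, and the Control mice received oil. Mutant and Control cells were grown for 3 days from 5000 cells/cm2. The sources used here give neither the driver of Cre nor the allele of Uhrf1 nor the genotype of the Control mice. Mutant and Control differ in treatment as well as in Uhrf1, so the effects of tamoxifen and of Uhrf1 loss cannot be told apart. The labels do not tie libraries to animals, and p-values therefore reflect a spread that may be technical.

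Entry into mitosis is driven by cyclin-dependent kinase 1 bound to B-type cyclins, with Polo-like and Aurora kinases acting beside it. Kinesin motors build the spindle, kinetochores attach chromosomes to it, and the spindle checkpoint holds back the anaphase-promoting complex until attachment is complete. Satellite cells rest in healthy muscle and express these genes little. They express them once they are activated and divide. Many of the genes are transcribed late in the cell cycle through CCAAT boxes and a nearby element called CHR. The CHR is bound by complexes of MuvB proteins with Mybl2 and Foxm1.

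Many promoters of the genes hold these letters, but not all of them do. RefSeq promoter windows (GRCm38.p6), reaching from 250 bases before the annotated start to 50 bases after it, were at hand for 37 of the 44 genes, in 40 windows. The motif CCAAT, searched on both strands, was present in 30 of the 40 windows (75%), against 37.4% of all 32851 RefSeq windows. The motif TTTGAA, a form of the CHR, was present in 30 of the 40 windows (75%), against 17.9% of all windows. A second form, TTCGAA, which reads the same on both strands, was present in 4 of the 40 windows (10%), against 1.56% of all windows. CCAAT and either CHR form stood together in 28 of the 40 windows (70%), against 7.52% of all windows. Windows and not genes were counted: Bub3, Ect2 and Prc1 entered more than once, and each of their windows held both motifs. These are matches of letters and not measured binding. Among the 33 windows of genes that fell in Mutant cells 26 held CCAAT and 28 a CHR form, and among the 7 windows of genes that did not pass the test 4 held each.

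The stretches below, of 150 bases each, show the motifs in 4 genes that fell in Mutant cells, of which Cdk1 and Mki67 were positive and Top2a and Kif11 negative in the second comparison described further on, in a cyclin that did not pass the test (Ccnb2), and in a gene that fell with no match in its whole window (Birc5). Each is written 5′ to 3′ on the strand of its gene and ends just before the RefSeq start, leaving out bases that GENCODE M21 places in an exon (26 bases, for Cdk1). Capitals mark CCAAT (or ATTGG, its other strand), TTTGAA (or TTCAAA) and TTCGAA. They lie at chr10:69352939-69353088 (minus strand) for Cdk1, chr11:99024190-99024339 (minus) for Top2a, chr19:37376232-37376381 (plus) for Kif11, chr7:135716380-135716529 (minus) for Mki67, chr9:70421555-70421704 (minus) for Ccnb2 and chr11:117849087-117849236 (plus) for Birc5.
Cdk1: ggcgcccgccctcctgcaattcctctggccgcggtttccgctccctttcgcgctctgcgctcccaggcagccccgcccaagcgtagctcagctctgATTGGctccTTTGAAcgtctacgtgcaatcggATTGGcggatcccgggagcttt
Top2a: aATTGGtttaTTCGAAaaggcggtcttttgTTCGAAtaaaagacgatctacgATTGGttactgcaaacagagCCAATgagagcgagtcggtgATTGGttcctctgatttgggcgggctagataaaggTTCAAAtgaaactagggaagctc
Kif11: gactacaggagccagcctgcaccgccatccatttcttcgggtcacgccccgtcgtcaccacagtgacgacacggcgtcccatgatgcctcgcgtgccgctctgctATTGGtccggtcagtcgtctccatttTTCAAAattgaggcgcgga
Mki67: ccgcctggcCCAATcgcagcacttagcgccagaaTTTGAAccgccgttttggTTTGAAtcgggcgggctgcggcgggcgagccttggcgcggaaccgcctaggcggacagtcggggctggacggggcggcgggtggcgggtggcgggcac
Ccnb2: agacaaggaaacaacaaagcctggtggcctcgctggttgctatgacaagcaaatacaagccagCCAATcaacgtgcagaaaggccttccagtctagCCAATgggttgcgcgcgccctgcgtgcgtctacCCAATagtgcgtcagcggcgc
Birc5: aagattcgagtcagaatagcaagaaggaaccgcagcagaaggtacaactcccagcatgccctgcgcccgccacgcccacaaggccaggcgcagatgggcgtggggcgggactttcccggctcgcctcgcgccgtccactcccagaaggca
In these stretches Top2a held 4 CCAAT boxes and Ccnb2 held 3, while Cdk1 held 2, Kif11 and Mki67 held 1 each and Birc5 held 0. The whole windows hold more: Top2a had 6 CCAAT boxes, Ccnb2, Cdk1 and Mki67 had 3 each, Kif11 had 1 and Birc5 had 0. The window of Ccnb2 also held 2 TTTGAA matches, which lie outside its printed stretch.

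Before the results, 1 library needs mention. Per the counts of repeat subfamilies, which are the only values per library used here, IAPEz-int, the internal part of an endogenous retrovirus, made up 9.29%, 11.1% and 16.3% of repeat counts in the Mutant libraries. It made up 0.501% and 0.675% in Control 1 and Control 2, and 13.1% in the library labelled Control 3. That library thus lay in the range of the Mutant libraries by this measure. Repeat counts totalled 1794698 to 2245124 per library, and the depth of the gene data is unknown. The sources used here do not say whether Control 3 entered the authors' Control means, and no gene value could be recomputed without it. By the authors' deposited table Uhrf1 itself was at 20.4 TPM in Mutant and 118 TPM in Control, a change of −3.12 by the test (SE 0.60, adjusted p = 4.01e-06).

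The first comparison asked how the mitotic genes differed between Mutant and Control cells. They fell together and by modest amounts. Of the 44, 35 fell in Mutant, 0 rose and 9 did not pass an adjusted p of 0.05 in the authors' deposited table, while by that rule 8.10% of all 22631 genes fell and 9.03% rose (17.1% in either direction). The 44 genes are abundant, and of the 8687 genes whose mean was 10 TPM or more 19.6% fell and 15.6% rose (35.3% in either direction). Only Cdk1, Ccnb1 and Ube2c, 3 of the 44, fell by 0.5 or more as log2 ratio and passed, as did 1.29% of all genes in the authors' deposited table. Of the 44, 43 had a negative log2 ratio, and the median ratio was −0.35, against −0.03 over the genes of at least 10 TPM in the authors' deposited table. TPM is a level per length of transcript, scaled to the same total in each library. Summed over the 44 genes it was 3387 TPM in Mutant and 4326 TPM in Control in the authors' deposited table, so the Mutant sum was 78.3% of the Control sum. A lower level in bulk RNA can come from fewer dividing cells or from less RNA per cell, and the values do not tell these apart.

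Each change with a standard error (SE) below is the authors' test estimate, on the log2 scale and as Mutant over Control, computed as their statistic times its SE. The deposited log2 fold change is another quantity, the log2 ratio of the group means after adding 1 TPM. The levels are the authors' group means, for which no error is at hand.

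**Figure D1:**
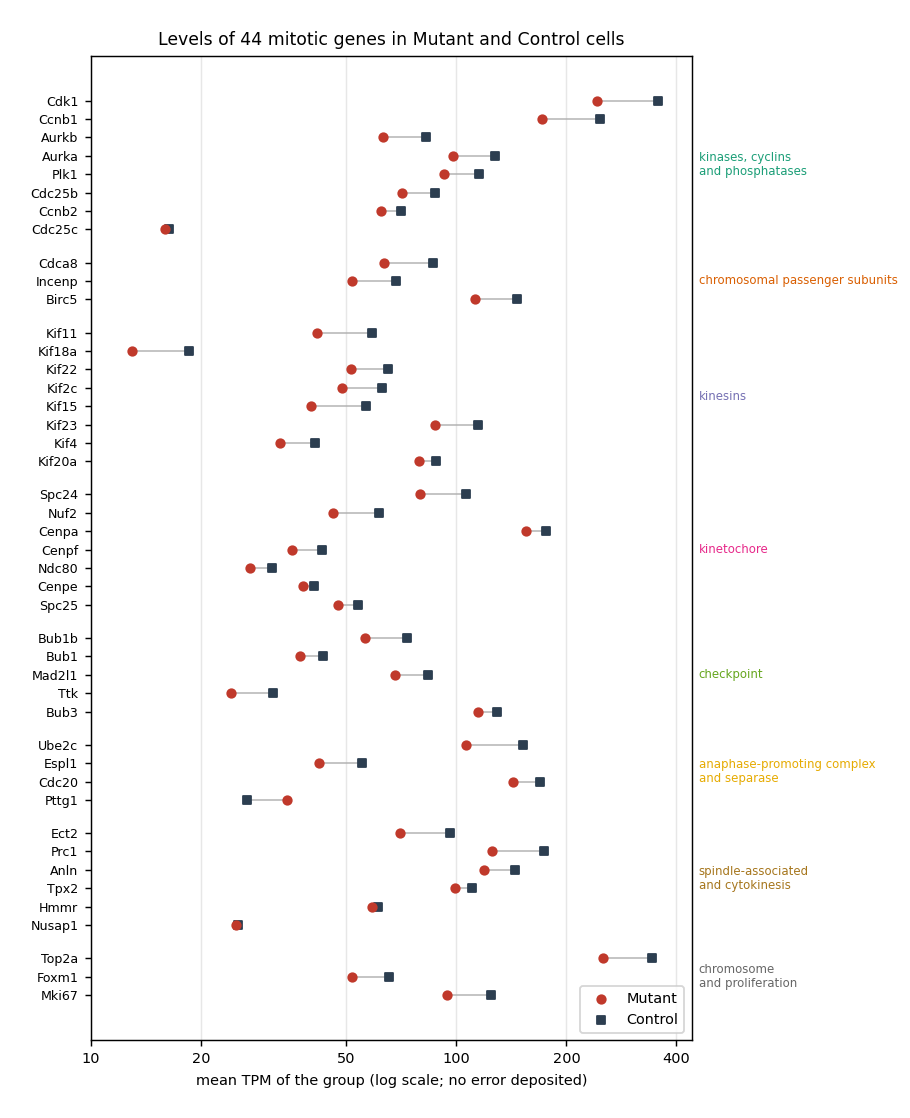
Mean TPM of each of the 44 genes in Mutant (circles) and Control (squares) on a log axis, grouped by role. Mutant lies left of Control for every gene except Pttg1, from Kif18a (13.0 TPM in Mutant) to Cdk1 (357 TPM in Control).

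Of the 8 kinases, cyclins and phosphatases, 6 fell in Mutant in the authors' deposited table, with a median log2 ratio of −0.34. Cdk1, the kinase that starts mitosis, was at 242 TPM in Mutant and 357 TPM in Control in the authors' deposited table, the highest Control level of the 44 genes. It also had the largest test estimate by size among them (−0.61, SE 0.07, adjusted p = 1.81e-16 by the authors' deposited table). Cyclin B1 (Ccnb1), its partner, was at 172 TPM in Mutant and 247 TPM in Control in the authors' deposited table and fell with it (−0.53, SE 0.06). Cyclin B2 (Ccnb2) was at 62.1 TPM in Mutant and 70.7 TPM in Control and did not pass the test (−0.20, 95% interval −0.37 to −0.03, adjusted p = 0.0957 by the authors' deposited table). The B cyclins were not tested against each other.

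The Aurora kinases moved by similar amounts. Aurka, which acts at the spindle poles, was at 98.0 TPM in Mutant and 127 TPM in Control, and Aurkb, the kinase of the chromosomal passenger complex, at 62.9 TPM in Mutant and 82.5 TPM in Control, in the authors' deposited table. Their test estimates were −0.41 (SE 0.08) and −0.44 (SE 0.08) by the authors' deposited table. Plk1, the Polo-like kinase, was at 92.6 TPM in Mutant and 115 TPM in Control and fell by 0.33 on the log2 scale (SE 0.07) in the authors' deposited table. The phosphatases that activate Cdk1 differed in their call. Cdc25b fell, at 70.9 TPM in Mutant and 87.2 TPM in Control (−0.27, SE 0.07), while Cdc25c, the member with the lowest Control level, was at 15.9 TPM in Mutant and 16.4 TPM in Control in the authors' deposited table. The estimate for Cdc25c was −0.05 with a 95% interval of −0.32 to 0.21 (adjusted p = 0.926 by the authors' deposited table), so a fall as large as that of Cdc25b lies within the interval.

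The chromosomal passenger complex fell as a whole. Its subunits besides Aurkb are Incenp, the scaffold, Birc5 (survivin) and Cdca8 (borealin), and all 3 fell in the authors' deposited table. Birc5 was at 113 TPM in Mutant and 146 TPM in Control, Cdca8 at 63.2 TPM in Mutant and 86.2 TPM in Control, and Incenp at 51.8 TPM in Mutant and 68.5 TPM in Control in the authors' deposited table. With Aurkb, the 4 test estimates lay between −0.47 (Cdca8) and −0.41 (Birc5) in the authors' deposited table, a span of 0.06 that is smaller than their median SE of 0.08.

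Of the 8 kinesins 7 fell in the authors' deposited table, with a median log2 ratio of −0.37. Kif11, the motor that pushes spindle poles apart, was at 41.6 TPM in Mutant and 58.6 TPM in Control and had the largest estimate by size (−0.51, SE 0.06, adjusted p = 3.1e-17 by the authors' deposited table). Kif15, which can act in its place, was at 40.1 TPM in Mutant and 56.5 TPM in Control in the authors' deposited table (−0.37, SE 0.08). Kif18a, which limits chromosome oscillation on the spindle, was the least abundant kinesin, at 13.0 TPM in Mutant and 18.5 TPM in Control (−0.50, SE 0.12, adjusted p = 0.000238 by the authors' deposited table). The chromosome-bound motors Kif4 (−0.32, SE 0.07) and Kif22 (−0.39, SE 0.09) and the microtubule depolymerase Kif2c (−0.39, SE 0.07) fell as well in the authors' deposited table. So did Kif23, a motor of the midzone and of cytokinesis (−0.37, SE 0.07 in the authors' deposited table). Kif20a, another motor of cytokinesis, was at 79.2 TPM in Mutant and 87.9 TPM in Control and did not pass the test (−0.17, 95% interval −0.30 to −0.03, adjusted p = 0.0834 by the authors' deposited table).

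Of the 7 kinetochore genes 4 fell and 3 did not pass in the authors' deposited table, with a median log2 ratio of −0.20. The Ndc80 complex, which binds spindle microtubules, was split. Spc24 was at 79.4 TPM in Mutant and 106 TPM in Control and Nuf2 at 46.0 TPM in Mutant and 61.3 TPM in Control, and both fell (−0.45, SE 0.09, and −0.43, SE 0.08, by the authors' deposited table). Ndc80 was at 27.1 TPM in Mutant and 31.2 TPM in Control (−0.22, 95% interval −0.42 to −0.01, adjusted p = 0.174 by the authors' deposited table). Spc25 was at 47.5 TPM in Mutant and 53.7 TPM in Control (−0.12, 95% interval −0.32 to 0.09, adjusted p = 0.636 by the authors' deposited table). The intervals of these 4 subunits overlap, and no difference among them was tested.

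Cenpa, the histone variant that marks centromeres, was at 155 TPM in Mutant and 175 TPM in Control in the authors' deposited table. Its log2 ratio of means was −0.18 and its test estimate −0.31 (SE 0.07), the widest gap between these quantities among the 44 genes in this direction in the authors' deposited table. Kif15 had the widest gap in the other direction, with −0.48 by the means and −0.37 by the test in the authors' deposited table. Cenpf fell (−0.26, SE 0.06), whereas Cenpe, a kinesin of the kinetochore, was at 38.0 TPM in Mutant and 40.8 TPM in Control and did not pass (−0.17, 95% interval −0.31 to −0.04, adjusted p = 0.0738 by the authors' deposited table).

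All 5 checkpoint genes fell in the authors' deposited table. Bub1b (BubR1), which binds Cdc20 in the checkpoint complex, was at 56.1 TPM in Mutant and 73.0 TPM in Control (−0.46, SE 0.06, adjusted p = 1.07e-11 by the authors' deposited table). Mad2l1 was at 68.0 TPM in Mutant and 83.7 TPM in Control, Bub1 at 37.2 TPM in Mutant and 43.3 TPM in Control, and the kinase Ttk (Mps1) at 24.1 TPM in Mutant and 31.4 TPM in Control in the authors' deposited table. Their test estimates lay close together, at −0.30 (SE 0.07), −0.31 (SE 0.09) and −0.30 (SE 0.10) by the authors' deposited table. Bub3 had the smallest change of the 35 genes that fell, at 115 TPM in Mutant and 129 TPM in Control (−0.17, SE 0.06, adjusted p = 0.0273 by the authors' deposited table).

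Among the genes of the anaphase-promoting complex and separase 3 of 4 fell in the authors' deposited table. Ube2c, the ubiquitin-conjugating enzyme of that complex, was at 106 TPM in Mutant and 152 TPM in Control and was second to Cdk1 by size of the test estimate (−0.53, SE 0.08, adjusted p = 7.33e-10 by the authors' deposited table). Its activator Cdc20 was at 143 TPM in Mutant and 170 TPM in Control (−0.27, SE 0.06 in the authors' deposited table). Separase (Espl1), the protease that cuts cohesin, was at 41.9 TPM in Mutant and 55.2 TPM in Control (−0.42, SE 0.08 in the authors' deposited table). Securin (Pttg1), the inhibitor of separase, stood alone with a positive estimate, at 34.4 TPM in Mutant and 26.8 TPM in Control in the authors' deposited table. It did not pass the test, and its SE was the largest of the 44 (0.35, SE 0.18, adjusted p = 0.21 by the authors' deposited table).

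Of the 6 spindle-associated and cytokinesis genes 4 fell in the authors' deposited table. Ect2, the exchange factor that starts furrow ingression, was at 70.0 TPM in Mutant and 96.0 TPM in Control (−0.47, SE 0.07), and Prc1, which bundles midzone microtubules, at 125 TPM in Mutant and 174 TPM in Control (−0.45, SE 0.06), in the authors' deposited table. Anln, a scaffold of the cleavage furrow, fell less (−0.29, SE 0.05), and Tpx2, the activator of Aurka on the spindle, was at 99.1 TPM in Mutant and 110 TPM in Control (−0.21, SE 0.07, adjusted p = 0.0122), by the authors' deposited table. Nusap1 was at 24.9 TPM in Mutant and 25.2 TPM in Control, with a 95% interval of −0.21 to 0.15 in the authors' deposited table. Hmmr was at 58.9 TPM in Mutant and 60.9 TPM in Control, with an interval of −0.19 to 0.05 in the authors' deposited table. Both are microtubule-associated proteins of the spindle, and neither passed the test (adjusted p = 0.926 for Nusap1 and 0.606 for Hmmr by the authors' deposited table).

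Top2a, the topoisomerase that disentangles chromosomes, was at 252 TPM in Mutant and 342 TPM in Control and fell (−0.47, SE 0.05, adjusted p = 2.93e-18 by the authors' deposited table). It was the most abundant of the 44 genes in Mutant and Cdk1 the most abundant in Control, by the means of the authors' deposited table. Mki67, which encodes the proliferation marker Ki-67, was at 94.5 TPM in Mutant and 124 TPM in Control in the authors' deposited table (−0.38, SE 0.06). Foxm1, the transcription factor of late cell cycle genes, was at 51.7 TPM in Mutant and 65.4 TPM in Control in the authors' deposited table (−0.39, SE 0.08). By summed level the roles ran from 74.0% of Control for kinases, cyclins and phosphatases to 83.8% for kinetochore genes in the authors' deposited table. Kinesins stood at 78.1% and checkpoint genes at 83.3% in the authors' deposited table. These sums carry no error, and the roles were not tested against each other. Abundant genes such as Cdk1 and Ccnb1 weigh most in such sums, and the order by median log2 ratio differed. By that measure the passenger subunits were lowest (−0.40), and kinases, cyclins and phosphatases stood at −0.34.

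Other genes of mitosis came from lists chosen by their known roles, with earlier results of these data known. The share that fell differed from list to list. It may be read beside the 19.6% of genes of at least 10 TPM that fell and the 15.6% that rose. More of the listed genes fell than rose in each of the 6 lists, but 17 of 36 kinetochore and centromere genes and 6 of 15 genes of the anaphase-promoting complex fell, and most of the others there did not pass. All 12 condensin and cohesin genes fell in the authors' deposited table, led by Ncapd3 (−0.56, SE 0.09) and Cdca5 (−0.51, SE 0.12). Of 16 other mitotic kinases and regulators 13 fell and 0 rose, led by Fbxo5, an inhibitor of the anaphase-promoting complex (−0.69, SE 0.10), and cyclin A2 (Ccna2; −0.69, SE 0.07), in the authors' deposited table. Of 36 other kinetochore and centromere genes 17 fell and 2 rose by the authors' deposited table. Trip13 (−0.58, SE 0.10) and Nsl1 (−0.55, SE 0.16) had the largest falls there, and Zwint (0.20, SE 0.07) and Cenpt (0.43, SE 0.12) rose, in the authors' deposited table. The list of MuvB, Myb and pocket protein genes also held E2f4, E2f5 and Tfdp1. Of its 11 genes 7 fell and 0 rose, led by Rbl1 (−0.60, SE 0.09) and Mybl2 (−0.55, SE 0.08), in the authors' deposited table. E2f4 (−0.52, SE 0.08) and Tfdp1 (−0.28, SE 0.05) were among the 7 in the authors' deposited table.

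Of 24 other kinesins and spindle genes 14 fell and 4 rose by the authors' deposited table. Psrc1, a microtubule-binding protein of the spindle, had the largest change, at 62.8 TPM in Mutant and 27.3 TPM in Control (1.14, SE 0.13, adjusted p = 5.95e-17 by the authors' deposited table). Ckap2 was at 68.3 TPM in Mutant and 52.2 TPM in Control and Gtse1 at 66.0 TPM in Mutant and 51.3 TPM in Control in the authors' deposited table (0.40, SE 0.07, and 0.34, SE 0.08). Both are also associated with microtubules. Kif3a, a motor of cilia rather than of the spindle, was the remaining one (0.33, SE 0.12 in the authors' deposited table). The fall was led by Troap (−0.59, SE 0.12) and Cep55 (−0.45, SE 0.09) in the authors' deposited table. The core of the anaphase-promoting complex with its enzyme Ube2s gave 15 genes, of which 6 fell and 1 rose by the authors' deposited table. Anapc15 (−0.41, SE 0.12) and Ube2s (−0.37, SE 0.06) fell most and Anapc13 rose (0.43, SE 0.13) in the authors' deposited table.

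**Figure D2:**
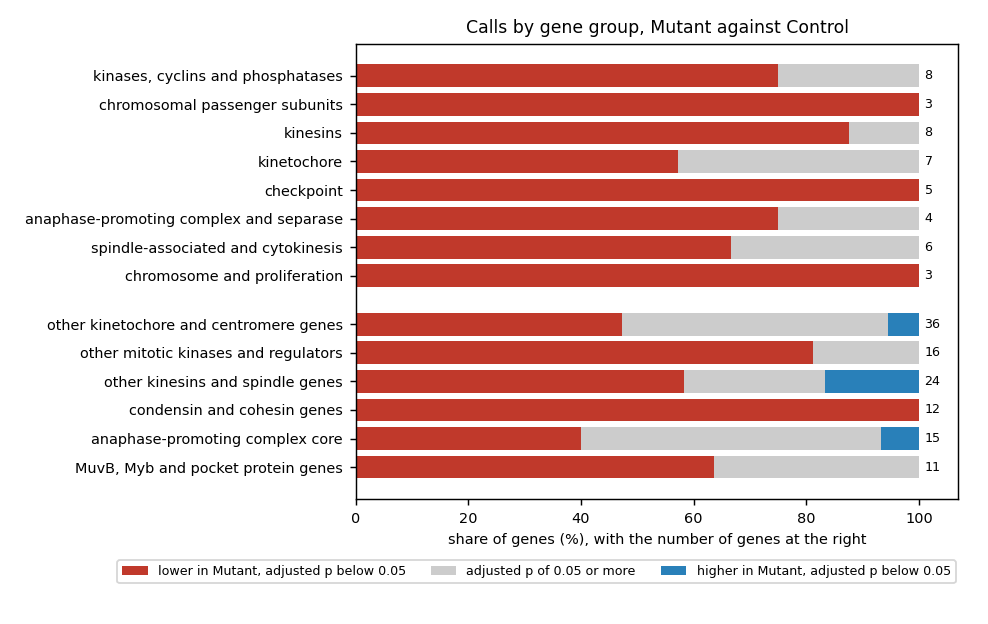
Share of genes in each group that were lower in Mutant (red), higher in Mutant (blue) or did not pass (grey) in the authors' deposited table, with the number of genes at the right. The upper 8 bars are the roles of the 44 genes and hold no blue, whereas 4 of the 24 other kinesins and spindle genes were higher in Mutant.

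The cells carried markers of satellite cells. Of 6 such markers 1 rose and 4 fell, and their sum was 1539 TPM in Mutant and 1733 TPM in Control in the authors' deposited table. Myod1 was at 914 TPM in Mutant and 1018 TPM in Control, and Pax7 at 29.6 TPM in Mutant and 23.1 TPM in Control, in the authors' deposited table. Of 7 leukocyte markers measured 2 rose and 0 fell, and their summed level was 115 TPM in Mutant and 34.2 TPM in Control in the authors' deposited table. Laptm5 made up most of that sum, at 84.8 TPM in Mutant and 25.1 TPM in Control, and Cd68, the other one that rose, was at 6.27 TPM in Mutant and 3.46 TPM in Control in the authors' deposited table. Of the 5 that did not pass, Fcer1g (19.3 TPM in Mutant and 3.22 TPM in Control), Cd14 (3.39 TPM in Mutant and 1.70 TPM in Control), Csf1r and Lyz2 had higher means in Mutant in the authors' deposited table. Ptprc, which encodes the leukocyte antigen CD45, had the only negative sign of the 7, at 0.303 TPM in Mutant and 0.381 TPM in Control in the authors' deposited table. The 8 endothelial markers (1 rose, 2 fell) summed to 22.8 TPM in Mutant and 26.2 TPM in Control, and the 8 fibroblast markers (0 rose, 0 fell) to 256 TPM in Mutant and 245 TPM in Control in the authors' deposited table. Col3a1 made up most of the fibroblast sums, at 181 TPM in Mutant and 179 TPM in Control. Col1a1 (19.7 TPM in Mutant and 12.8 TPM in Control) and Ly6a (22.4 TPM in Mutant and 15.1 TPM in Control) had higher means in Mutant. Thy1 had a lower one (28.9 TPM in Mutant and 34.5 TPM in Control), and 2 of the 8 fibroblast markers had a negative log2 ratio. These counts may be read beside the shares for this comparison, where 8.10% of all 22631 genes fell and 9.03% rose by the same rule. At a mean of 10 TPM or more, a level that all 6 satellite cell markers exceed, 19.6% fell and 15.6% rose. The part of the marked cell types in the mitotic gene changes was not tested.

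The second comparison sets PT against PUT, names that no label explains, and directions are therefore given relative to Uhrf1, whose log2 fold change was −4.00 (SE 0.27) in the authors' deposited PT and PUT table. The sources used here do not say whether it shares libraries with the first comparison. Here genes of both signs passed the test. Of the 44 genes 26 changed in the direction of Uhrf1 (negative), 8 in the other direction (positive) and 10 did not pass in the authors' deposited PT and PUT table. Over all 27775 genes there 22.1% were negative and 25.1% positive by the same rule (47.2% in either direction). Among the 12170 with a mean normalised count of at least 100, which all 44 exceed, 42.1% were negative and 28.8% positive (71.0% in either direction). The median of the 44 was −0.27, against −0.12 over those abundant genes in the authors' deposited PT and PUT table. The log2 fold changes spanned 2.32 between the lowest and the highest of the 44, against 0.96 for the test estimates of the first comparison. Median SEs were 0.09 in the second comparison and 0.07 in the first. The upper end of the first span was Pttg1, which did not pass. Spans over all genes were not computed. The share of abundant genes that passed was 71.0% in the second comparison and 35.3% (at least 10 TPM) in the first.

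Cell type markers changed in the second comparison as well. Of 6 satellite cell markers 5 were negative and 1 positive in the authors' deposited PT and PUT table, with Itga7 lowest (−1.09, SE 0.07) and Myf5 positive (0.83, SE 0.11). Of 6 leukocyte markers measured there 3 were positive, among them Laptm5 (2.00, SE 0.12) and Fcer1g (4.65, SE 0.64), and 1 was negative, Csf1r (−0.46, SE 0.16), in the authors' deposited PT and PUT table. Of 7 endothelial markers 3 were positive and 0 negative, with Fabp4 at 1.85 (SE 0.43), and of 6 fibroblast markers 2 were positive and 1 negative, Col3a1 (−1.49, SE 0.08), in the authors' deposited PT and PUT table. Mean normalised counts were low for Fcer1g (29.4) and Fabp4 (26.8), against 555 for Laptm5. Over all 27775 genes of this comparison 22.1% were negative and 25.1% positive by the same rule. Among genes with a mean normalised count of at least 100, which all 6 satellite cell markers exceed, 42.1% were negative and 28.8% positive. The part of these cells in the values of the mitotic genes was not tested.

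**Figure D3:**
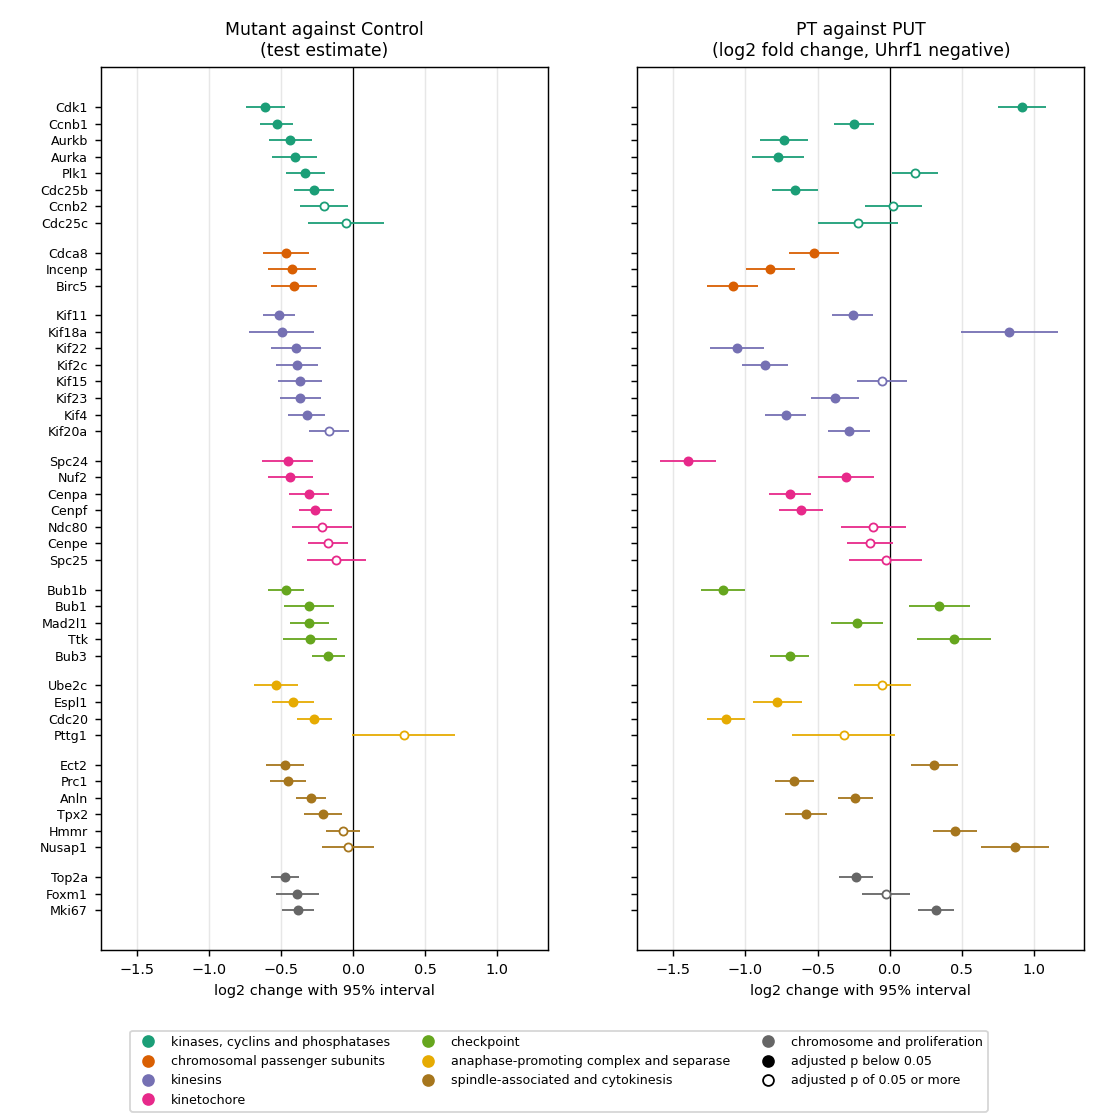
Log2 change with 95% interval for each of the 44 genes, in Mutant against Control (left) and in PT against PUT (right, where Uhrf1 is negative), coloured by role, with filled points for an adjusted p below 0.05. The left points lie between −0.61 (Cdk1) and 0.35 (Pttg1), and the right points between −1.40 (Spc24) and 0.92 (Cdk1).

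Cdk1, the gene with the largest fall in Mutant against Control, had the highest positive value in the second comparison (0.92, SE 0.09, adjusted p = 8.45e-26 in the authors' deposited PT and PUT table). Its partner Ccnb1 was negative (−0.25, SE 0.07), and Ccnb2 did not pass (0.02, 95% interval −0.17 to 0.22, adjusted p = 0.873), in the authors' deposited PT and PUT table. Aurka (−0.78, SE 0.09), Aurkb (−0.73, SE 0.09) and Cdc25b (−0.66, SE 0.08) were negative, while Plk1 did not pass (0.17, SE 0.08, adjusted p = 0.0605), in the authors' deposited PT and PUT table. Cdc25c did not pass either (−0.22, 95% interval −0.50 to 0.05, adjusted p = 0.194 in the authors' deposited PT and PUT table).

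The passenger complex was negative in full, with Birc5 lowest (−1.09, SE 0.09), then Incenp (−0.83, SE 0.09) and Cdca8 (−0.52, SE 0.09), in the authors' deposited PT and PUT table. Of the 8 kinesins 6 were negative, led by Kif22 (−1.06, SE 0.10) and Kif2c (−0.86, SE 0.08), and Kif18a was positive (0.83, SE 0.17), in the authors' deposited PT and PUT table. Kif11 was negative (−0.26, SE 0.07), and Kif20a, which had not passed in the first comparison, was negative (−0.28, SE 0.07), in the authors' deposited PT and PUT table. Kif4 (−0.72, SE 0.07) and Kif23 (−0.38, SE 0.09) were negative, and Kif15 did not pass (−0.06, 95% interval −0.23 to 0.12, adjusted p = 0.644), in the authors' deposited PT and PUT table.

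Of the 7 kinetochore genes 4 were negative and 0 positive in the authors' deposited PT and PUT table. The Ndc80 complex again held members on both sides of the threshold. Spc24 was the lowest of all 44 genes (−1.40, SE 0.10, adjusted p = 6.78e-44) and Nuf2 was negative (−0.30, SE 0.10), in the authors' deposited PT and PUT table. Ndc80 (−0.11, 95% interval −0.33 to 0.11, adjusted p = 0.446) and Spc25 (−0.03, 95% interval −0.28 to 0.22, adjusted p = 0.886) did not pass in the authors' deposited PT and PUT table, nor did Cenpe (−0.14, 95% interval −0.30 to 0.02, adjusted p = 0.168). Spc24 and Nuf2 were also the subunits that passed in the first comparison. In the second comparison the 95% interval of Nuf2 (−0.50 to −0.11) overlaps those of Ndc80 and Spc25. No difference among the subunits was tested. Cenpa (−0.69, SE 0.08) and Cenpf (−0.61, SE 0.08) were the remaining negative kinetochore genes in the authors' deposited PT and PUT table.

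The checkpoint genes went both ways. Bub1b (−1.16, SE 0.08), Bub3 (−0.69, SE 0.07) and Mad2l1 (−0.23, SE 0.09) were negative, and the kinases Bub1 (0.34, SE 0.11) and Ttk (0.44, SE 0.13) were positive, in the authors' deposited PT and PUT table. Cdc20 (−1.14, SE 0.07) and Espl1 (−0.78, SE 0.09) were negative, and Ube2c (−0.05, SE 0.10, adjusted p = 0.72) did not pass, in the authors' deposited PT and PUT table. Pttg1 did not pass here either and had the opposite sign to its first value (−0.32, 95% interval −0.68 to 0.04, adjusted p = 0.143 in the authors' deposited PT and PUT table).

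The spindle-associated genes were split evenly. Prc1 (−0.66, SE 0.07), Tpx2 (−0.58, SE 0.07) and Anln (−0.24, SE 0.06) were negative, while Nusap1 (0.87, SE 0.12), Hmmr (0.45, SE 0.08) and Ect2 (0.31, SE 0.08) were positive, in the authors' deposited PT and PUT table. Top2a was negative (−0.24, SE 0.06) and Mki67 positive (0.32, SE 0.06), and Foxm1 did not pass (−0.03, 95% interval −0.19 to 0.14, adjusted p = 0.839), in the authors' deposited PT and PUT table. Nusap1 and Hmmr had not passed in the first comparison, whereas Cdk1, Kif18a, Bub1, Ttk, Ect2 and Mki67 had fallen there.

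In the second comparison the values of the 44 genes went with the base composition of their transcripts. GC content was taken from the longest coding transcript of each gene in GENCODE M21 and ranged from 38.3% (Kif18a) to 56.1% (Espl1) over the 44. Of the 15 genes with the lowest GC content 6 were negative and 6 positive, with a median of −0.11 in the authors' deposited PT and PUT table. Of the 15 with the highest GC content 11 were negative and 0 positive, with a median of −0.78 in the authors' deposited PT and PUT table. Across the 44 genes Pearson's r between GC content and log2 fold change was −0.52 (Spearman's rho −0.51). For the test estimates of Mutant against Control it was −0.18 (rho −0.15). These are descriptions across genes that share their libraries.

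The medians of abundant genes also went down with GC content. Over the 12170 genes with a mean normalised count of at least 100, the median log2 fold change was 0.58 in the lowest of 10 equal classes of GC content and −0.47 in the highest, in the authors' deposited PT and PUT table. In Mutant against Control the medians of such classes of the 8687 genes with at least 10 TPM lay between −0.08 and 0.00, by estimates from the authors' deposited table. After the median of the genes in the same class was subtracted, a step chosen after the data were seen, the median of the 44 genes in the second comparison was −0.40. Under that step the median of the spindle-associated genes went below 0 (−0.30, against 0.03 without it) and that of Top2a, Mki67 and Foxm1 above it (0.24, against −0.03). Spc24 (−1.15), Birc5 (−1.03) and Cdk1 (0.97) kept their signs, while Bub1 (−0.24), Hmmr (−0.13) and Ect2 (−0.27) turned negative. The step more than tripled the size of Kif11 (−0.84) and Mad2l1 (−0.81), took Kif18a to 0.25 and Nusap1 to 0.29, and put Plk1 at 0.60. The source of the relation to GC content was not tested. Per the submitters' processing notes, HISAT2 is listed for the Cre Control libraries and STAR for the Mutant and Control libraries, and the sources used here do not say which of these entered the PT and PUT table.

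**Figure D4:**
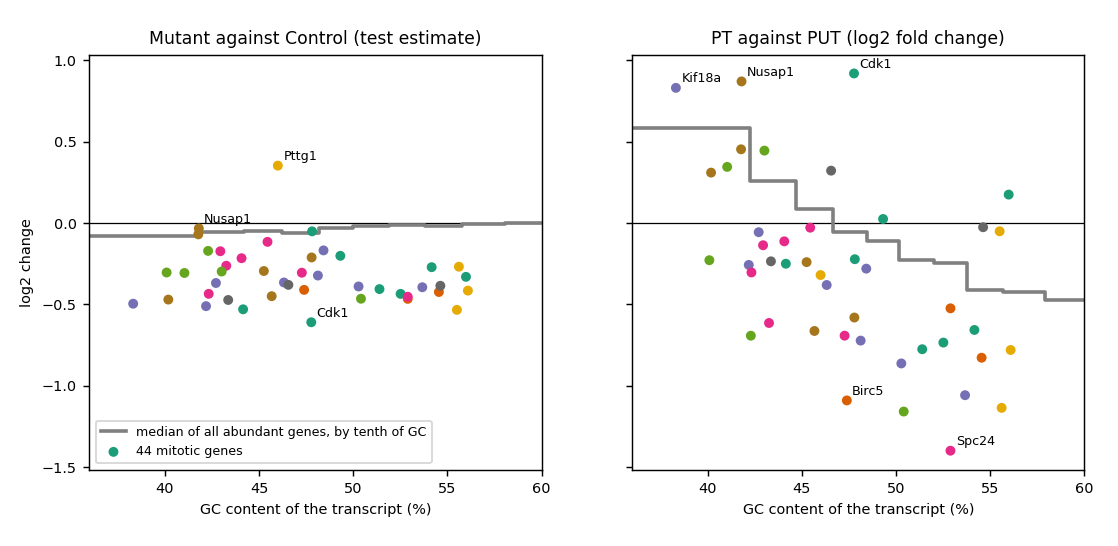
Log2 change against the GC content of the transcript (%) for the 44 genes (points, coloured by role), with the median of all abundant genes in each of 10 classes of GC content as a grey step line, for Mutant against Control (left, genes of at least 10 TPM) and PT against PUT (right, mean normalised count of at least 100). The line is nearly flat at left and runs from 0.58 to −0.47 at right.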

How the data were processed

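The authors deposited the gene data as comparisons, with no values per library. Per the file headers, the first table holds mean expression of Mutant, of Control and of all libraries, log2 fold changes, their listed standard errors, a score (the test statistic) and p-values before and after adjustment. The deposited means have the totals that TPM has and were read as TPM. The header of that table stands 1 column to the left of its values, and was realigned. In that table log2 fold changes match the ratio of means, each with 1 added. The test estimate is the statistic times the standard error, and 95% intervals are the estimate with 1.96 standard errors on either side. The second table, of PT against PUT, holds DESeq2 columns per the file headers, with a mean signal (normalised counts averaged by the authors). Repeat counts per library were deposited by the authors and used here only for the share of IAPEz-int.

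Per the submitters' processing notes, Trim Galore 0.6.6, featureCounts 2.0.1 and DESeq2 are listed for all libraries, STAR 2.7.6a for Mutant and Control, and HISAT2 2.2.1 for Cre Control, on the build GRCm38 and, for Mutant and Control, mm10. Per the labels' protocols, ribosomal RNA was depleted and Mutant and Control were sequenced with paired reads of 150 bases.

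No gene model was refitted. A gene was called at an adjusted p below 0.05 as deposited, with the direction of the deposited fold change. Members were described by counts and medians beside all genes, in Python 3.11.15 with pandas 2.3.3. The adjustments and the GC centring were tested on simulated data. Each of the 44 genes is described. Those given in full are, by the rule used, the largest and smallest changes of each role, the main mitotic regulators, and the genes that did not pass or that differed in direction. The members and lists were chosen with earlier results of these data known. GC content was found for 22497 and 27681 genes of the tables.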

Additional observations from a re-analysis of the deposited data

How the results depend on the processing

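No paired analysis was possible because the gene tables give group comparisons and no values per library, and for the same reason no library could be left out. Of the 35 genes that fell, 3 had a log2 ratio of at least 0.5 in size. Of the 8 positive genes in PT against PUT, 5 passed a Holm adjustment and 3 had a log2 fold change of at least 0.5. The median of PT against PUT was −0.40 after GC centring, chosen after the data were seen, which also turned the medians of the spindle-associated genes (−0.30) and of the chromosome and proliferation genes (0.24), Bub1 (−0.24), Hmmr (−0.13) and Ect2 (−0.27). It moved the PT against PUT medians of checkpoint genes to −0.81, passenger subunits to −0.42, kinetochore genes to −0.56, kinesins to −0.55 and anaphase-promoting complex genes to −0.38, against −0.23, −0.83, −0.30, −0.33 and −0.55 without it. The cause was not tested. The other alternatives of the counts and medians over all 44 genes, 30 in all, stayed within 1.5 times the count or moved a median by less than the median standard error of the 44 genes. They included a size of at least 0.5 for negative genes in PT against PUT (18, against 26) and GC centring of Mutant against Control (median −0.32), besides thresholds of 0.01 and 0.1, Benjamini-Hochberg and Holm over all genes, filters on low values, the sign of the test estimate, the test estimate itself, a pseudocount of 0.1 and centring on all genes.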

Other observations

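The other mitotic gene lists held genes of both signs in the second comparison, where 42.1% of genes with a mean normalised count of at least 100 were negative and 28.8% positive. Of 12 condensin and cohesin genes 8 were negative, as Uhrf1 was, and 2 positive in the authors' deposited PT and PUT table. The condensin ATPases Smc4 (0.75, SE 0.08) and Smc2 (0.26, SE 0.08) were positive, and the condensin subunit Ncapd2 (−0.97, SE 0.06) was negative, in the authors' deposited PT and PUT table. Of 37 other kinetochore and centromere genes 18 were negative and 10 positive in the authors' deposited PT and PUT table, shares near those of the abundant genes. Cenps was lowest (−2.01, SE 0.21) in the authors' deposited PT and PUT table. The Cdk1-binding proteins Cks2 (1.91, SE 0.15) and Cks1b (0.65, SE 0.10) were positive, as Cdk1 was, in the authors' deposited PT and PUT table. Both had fallen in Mutant against Control in the authors' deposited table (−0.29, SE 0.09, and −0.26, SE 0.08). Psrc1, Gtse1 and Ckap2, the spindle genes that had risen in Mutant, stood at −0.07 (SE 0.11), 0.03 (SE 0.09) and 0.65 (SE 0.08) in the authors' deposited PT and PUT table, and of these Ckap2 passed the threshold. These genes were named after their values were seen.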
